A study of Mus musculus with 48 samples.

Results

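The genes described here are 39 genes whose products make, activate and desaturate fatty acids, and they were looked up on the array by gene symbol or an older synonym. The list was drawn up with earlier results of these data known. Of the 39 genes, 36 were found on the array as 42 probesets, and Tecr, Acsl1 and Acsm3 were not analysed here. A probeset is a set of array probes that reads a single transcript, and each gene is given by its probeset with the highest mean. The mean level over all arrays reached the 25th percentile of all probesets for 34 of the 36 genes, and these were tested. The bile acid and very long chain acyl-CoA synthetases Slc27a2 and Slc27a5 lay below that level. The array as a whole named 19147 genes, of which 15320 reached it.

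Skin RNA was measured in 48 mice with 1 array per mouse, after 14 days of treatment with an inhibitor of DGAT1, the enzyme that adds the last fatty acid to diacylglycerol to make triglyceride, or with vehicle. All mice were C57BL/6, with an age of 8 weeks in the labels, and the methods describe males made obese on a high-fat diet, so the vehicle mice share the strain and the diet. In Study 1 the treatments were vehicle, Cpd1 or Cpd2 (8 mice each), in Study 2 vehicle, Cpd2 or Cpd6 (4 mice each) and in Study 4 vehicle, Cpd6 or Cpd18 (4 mice each). The compounds called skin-positive, Cpd2 and Cpd6, are those with sebaceous gland atrophy on histology, and the skin-negative ones are Cpd1 and Cpd18. The labels name dorsal skin, and each mouse is treated as a separate sample.

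Fatty acids are made in the cytosol from citrate that leaves the mitochondrion through Slc25a1. Acly splits citrate to acetyl-CoA, Acss2 makes acetyl-CoA from acetate, Acaca and Acacb make malonyl-CoA from it, and Fasn joins these units into palmitate with NADPH from Me1 and other enzymes. The chains are then lengthened in the endoplasmic reticulum, where an Elovl enzyme condenses, Hsd17b12 reduces, a Hacd enzyme dehydrates and Tecr reduces again, and are desaturated by the Fads and Scd enzymes. Long chain fatty acids react further only as CoA esters, which the Acsl, Acsbg and Slc27 enzymes make. In skin the sebaceous gland fills with lipid made this way, the epidermis needs very long chains for its ceramides, and dermal adipocytes express many of the same genes.

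Acss2, Hsd17b12, Hacd2 and Acsl5 were the members called lower with a skin-positive compound both in Study 1 and in Study 4, and their promoters are shown for that reason. Of the 4, Acss2 alone was also called in Study 1 when 3 Cpd2 mice with little muscle signal were left out and in Study 4 when hair follicle markers were adjusted for, and the Study 1 call of Hsd17b12 was lost in 10 of 16 fits that left out 1 mouse. The sequences are the 250 bases before the transcription start in RefSeq on build GRCm38.p6, written 5′ to 3′ on the strand of the gene. Capitals mark matches on either strand to TCACNCCAC, the sterol regulatory element that SREBP proteins bind, to CCAAT, to the E-box CACGTG and to the GC box GGGCGG. The Acss2 window is chr2:155517793-155518042 on the + strand, the Hsd17b12 window chr2:94157910-94158159 on the - strand, the Hacd2 window chr16:35022171-35022420 on the + strand and the Acsl5 window chr19:55253119-55253368 on the + strand.
Acss2: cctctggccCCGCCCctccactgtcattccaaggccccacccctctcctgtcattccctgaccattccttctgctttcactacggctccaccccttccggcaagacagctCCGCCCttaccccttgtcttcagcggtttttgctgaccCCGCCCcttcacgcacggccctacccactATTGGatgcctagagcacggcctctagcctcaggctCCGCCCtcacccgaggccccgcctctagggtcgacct
Hsd17b12: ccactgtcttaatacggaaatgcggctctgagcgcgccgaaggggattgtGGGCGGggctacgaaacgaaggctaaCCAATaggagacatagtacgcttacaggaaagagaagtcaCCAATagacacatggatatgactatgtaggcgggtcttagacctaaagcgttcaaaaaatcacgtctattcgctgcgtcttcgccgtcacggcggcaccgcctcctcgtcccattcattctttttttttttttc
Hacd2: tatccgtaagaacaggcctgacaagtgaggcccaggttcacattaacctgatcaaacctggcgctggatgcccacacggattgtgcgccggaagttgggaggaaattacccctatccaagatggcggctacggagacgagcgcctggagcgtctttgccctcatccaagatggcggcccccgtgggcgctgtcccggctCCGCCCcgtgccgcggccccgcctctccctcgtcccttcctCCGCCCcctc
Acsl5: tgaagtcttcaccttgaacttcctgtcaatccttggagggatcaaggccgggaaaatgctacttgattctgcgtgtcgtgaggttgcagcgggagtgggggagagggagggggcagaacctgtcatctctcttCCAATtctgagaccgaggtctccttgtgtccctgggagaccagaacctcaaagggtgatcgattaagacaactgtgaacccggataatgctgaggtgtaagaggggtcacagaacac

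The Acss2 window held 4 GC boxes and 1 CCAAT box, the Hsd17b12 window 2 CCAAT boxes and 1 GC box, the Hacd2 window 2 GC boxes and the Acsl5 window 1 CCAAT box. None of the 4 windows held TCACNCCAC or CACGTG. RefSeq gave 45 promoter windows for 35 of the 39 members. TCACNCCAC was found in only 2 of the 45 (4.44%), against 1.05% of all 32851 windows. The members that held it were Mlxipl and Acsl1, of which Acsl1 was not analysed on the array. CCAAT was found in 51.1% against 33.8%, CACGTG in 8.89% against 6.02% and GGGCGG in 64.4% against 32.7%. Acsl5 was the only one of the 4 without a GC box in this window. The matches describe letters in these windows, and no binding was measured.

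Before the comparisons, some mice stood apart from their groups. The mean log2 intensity of 20 skeletal muscle markers ran from 5.79 to 12.06 over the 8 Cpd2 mice of Study 1, with a median of 9.65, and from 10.25 to 12.30 over the 8 vehicle mice. Replicates 3, 7 and 4 of that Cpd2 group were the lowest, at 5.79, 6.63 and 7.56. Replicate 2 came next at 8.44, also below every vehicle mouse. Vehicle replicate 4 of Study 1 was the lowest vehicle mouse of that study in muscle markers at 10.25, in adipocyte markers at 9.42 and in sebaceous gland markers at 8.64, and the highest in hair follicle markers at 11.22. Counts of calls with Cpd2 in Study 1 are also given without Cpd2 replicates 3, 7 and 4, and without vehicle replicate 4. In a piece of whole skin, fewer cells of a type and less RNA per cell cannot be told apart.

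**Figure D1:**
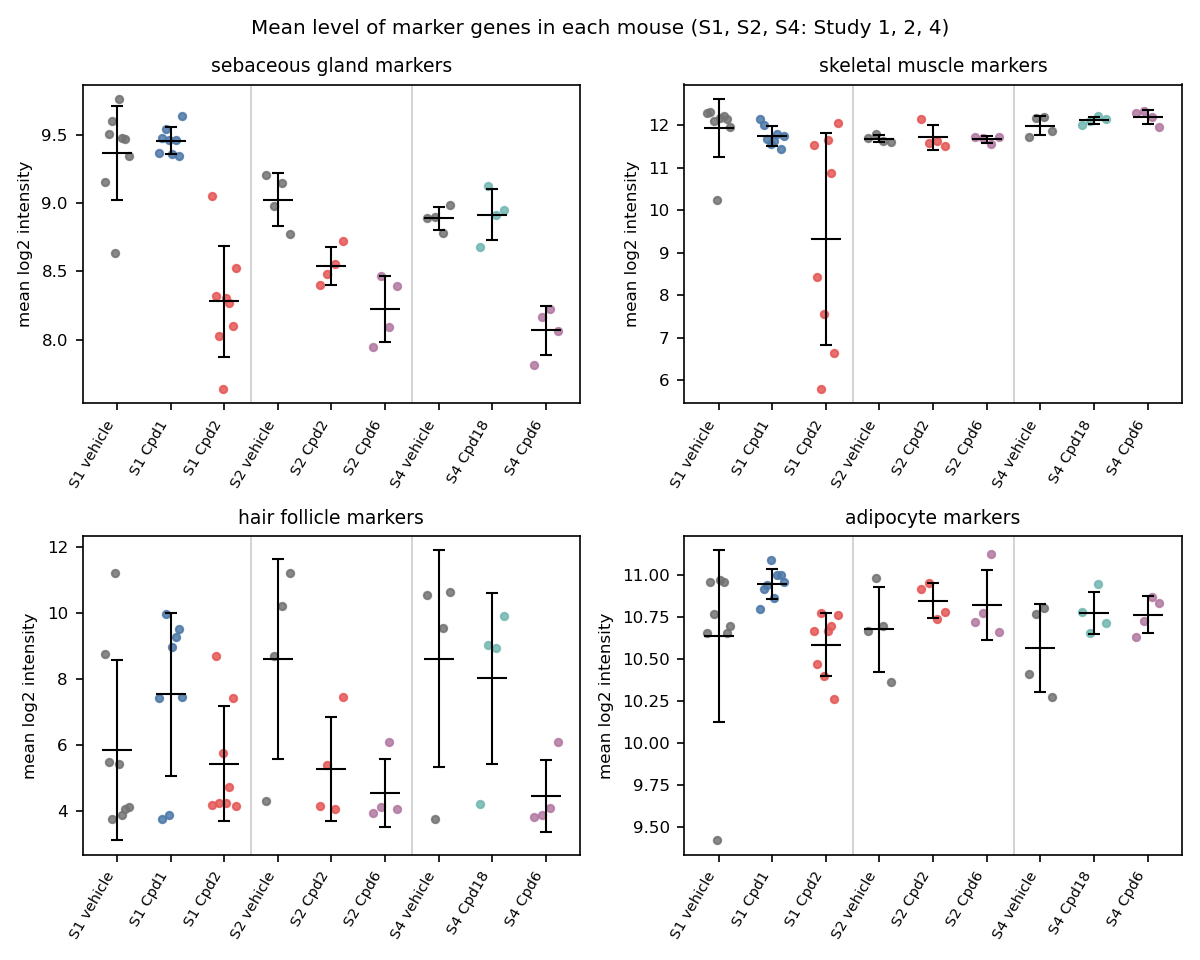
Each point is the mean log2 intensity of a marker list in a mouse (y axis) by study and treatment (x axis), with the group mean and SD as a bar. Sebaceous gland markers were lower in the Cpd2 and Cpd6 groups than in the vehicle group of the same study, 3 Cpd2 mice of Study 1 lay below 8 in muscle markers, and hair follicle markers ranged from 3.75 to 10.62 within the Study 4 vehicle group alone.

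With Cpd2 in Study 1, RNA of 16 of the 34 tested members fell and that of 1 rose. Among those that fell were Acss2 (-1.14 on the log2 scale), Acacb (-1.10), the fatty acid synthase gene Fasn (-0.82) and the transporter and synthetase gene Slc27a4 (-0.79). With Cpd6 in Study 4, 6 of the 34 fell and 1 rose. No member was called with the skin-negative compounds Cpd1 and Cpd18, nor with Cpd2 or Cpd6 in Study 2. A gene is called when the adjusted p of limma, a linear model that shares information on the spread between probesets, lies under 0.05, with Benjamini-Hochberg adjustment across the 28789 probesets tested, and fold changes are given as log2 differences with their standard error (SE). Called lower were 6.00% of all tested probesets with Cpd2 in Study 1 and 6.17% with Cpd6 in Study 4, against 47.1% and 17.6% of the members. Called higher were 7.09% and 4.56% of all probesets, against 2.94% of the members in each.

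The median change of the 34 members was -0.27 with Cpd2 in Study 1, where the median over all probesets was 0.04, and -0.22 with Cpd6 in Study 4, where it was 0.01. In Study 2 the member median was -0.14 with Cpd6 and -0.04 with Cpd2, and the medians over all probesets were 0.02 for both. With Cpd1 and Cpd18 the member medians were 0.01 and 0.04, and those over all probesets were 0.00 and 0.01. The background was low in the comparisons without called members, with 0.327% of probesets called for Cpd1, 0.129% for Cpd2 in Study 2, 0.379% for Cpd6 in Study 2 and 0.00347% for Cpd18. At an unadjusted p under 0.05, 6 of the 34 members passed with Cpd1, where 13.2% of all probesets did, and 3 with Cpd2 in Study 2, where 7.38% did. With Cpd6 in Study 2 it was 10 members against 11.8% of all probesets, and with Cpd18 5 members against 7.96%.

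**Figure D2:**
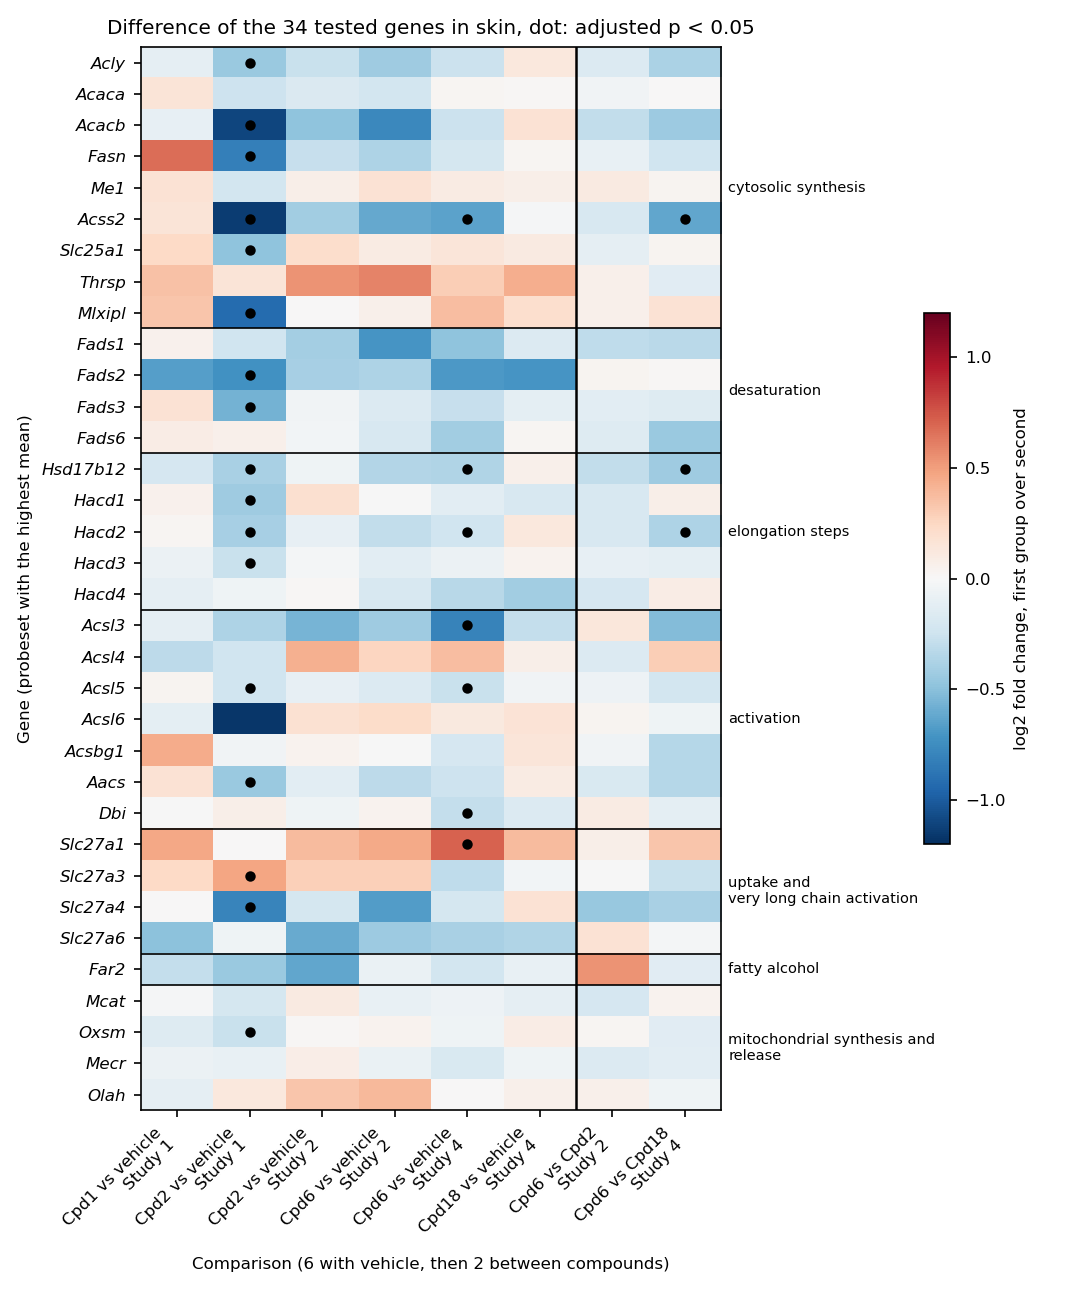
Colour gives the log2 fold change of each of the 34 tested genes (rows, grouped by role) in 6 comparisons with vehicle and 2 between compounds (columns), and a black dot marks an adjusted p under 0.05. Dots fill much of the Cpd2 column of Study 1, 7 stand in the Cpd6 column of Study 4, and 3 stand in the column of Cpd6 against Cpd18.

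Among the 9 tested genes of cytosolic synthesis, 6 fell with Cpd2 in Study 1, 1 fell with Cpd6 in Study 4, and none was called in the other comparisons with vehicle. Acss2 was the gene in common. Its level in Study 1 ran from 7.89 to 9.14 with Cpd2 (median 8.61), from 8.70 to 10.03 with vehicle (median 9.88) and from 9.74 to 10.12 with Cpd1 (median 9.91). The Cpd2 and vehicle groups overlapped through vehicle replicate 4 alone, the mouse at 8.70, and 5 of the 8 Cpd2 mice lay below every vehicle mouse. The change with Cpd2 was -1.14 (SE 0.16, adjusted p = 2.9e-05), and -1.29 without that vehicle mouse.

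In Study 4 the 4 Cpd6 mice had Acss2 levels of 8.35, 8.61, 8.71 and 8.35, the vehicle mice 8.99, 9.34, 8.995 and 9.26, and the Cpd18 mice 9.21, 9.24, 9.01 and 9.07. Every Cpd6 mouse lay below every vehicle and every Cpd18 mouse. Acss2 changed by -0.64 with Cpd6 (SE 0.11, adjusted p = 0.0037) and by -0.02 with Cpd18 (95% interval -0.25 to 0.22). In Study 2 the levels were 9.84, 9.68, 9.73 and 9.16 with vehicle, 9.13, 9.07, 9.09 and 9.44 with Cpd2, and 8.51, 9.26, 9.002 and 9.18 with Cpd6. The groups of Study 2 overlapped through vehicle replicate 4, and neither the -0.42 of Cpd2 (adjusted p = 0.58) nor the -0.61 of Cpd6 (adjusted p = 0.14) was called.

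The other 5 genes of cytosolic synthesis that fell were called with Cpd2 in Study 1 only. Acacb, the acetyl-CoA carboxylase bound to the outer mitochondrial membrane, changed by -1.10 (SE 0.16, adjusted p = 2.9e-05), with levels from 4.74 to 5.69 in the Cpd2 mice and from 5.72 to 6.84 in the vehicle mice, which did not overlap. Fasn ranged from 6.74 to 7.92 with Cpd2 and from 6.93 to 8.96 with vehicle, where the lowest value was again replicate 4, and changed by -0.82 (adjusted p = 0.021). Mlxipl, a carbohydrate-responsive transcription factor that drives lipogenic genes, changed by -0.92 (adjusted p = 0.036), the citrate carrier Slc25a1 by -0.48 (adjusted p = 0.046) and Acly by -0.44 (adjusted p = 0.034). Of 16 fits that left out 1 mouse, the call was lost in 12 for Slc25a1, 9 for Mlxipl, 8 for Acly, 2 for Fasn and 0 for Acacb. Acaca, Me1 and the lipogenic regulator Thrsp were not called in any comparison, and the 2 probesets of Acaca differed in sign with Cpd2 in Study 1, at -0.25 and 0.09.

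Cpd1 gave other values for these genes in the same study. Fasn was 0.67 above vehicle with Cpd1 (adjusted p = 0.21). Mlxipl ranged from 6.95 to 7.66 with Cpd1 and from 5.09 to 7.67 with vehicle. Vehicle replicate 4 was the lowest vehicle mouse for both genes, at 6.93 for Fasn and 5.09 for Mlxipl. The next vehicle mice were at 8.10 and 6.95. With Cpd1, 2 of the 9 genes of cytosolic synthesis were below vehicle, against 8 of 9 with Cpd2. In the histology of the paper Cpd1 was given at a lower dose than Cpd2. The dose of Cpd1 on the arrays is not settled by the labels or methods, so Cpd1 and Cpd2 are set side by side and not compared.

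**Figure D3:**
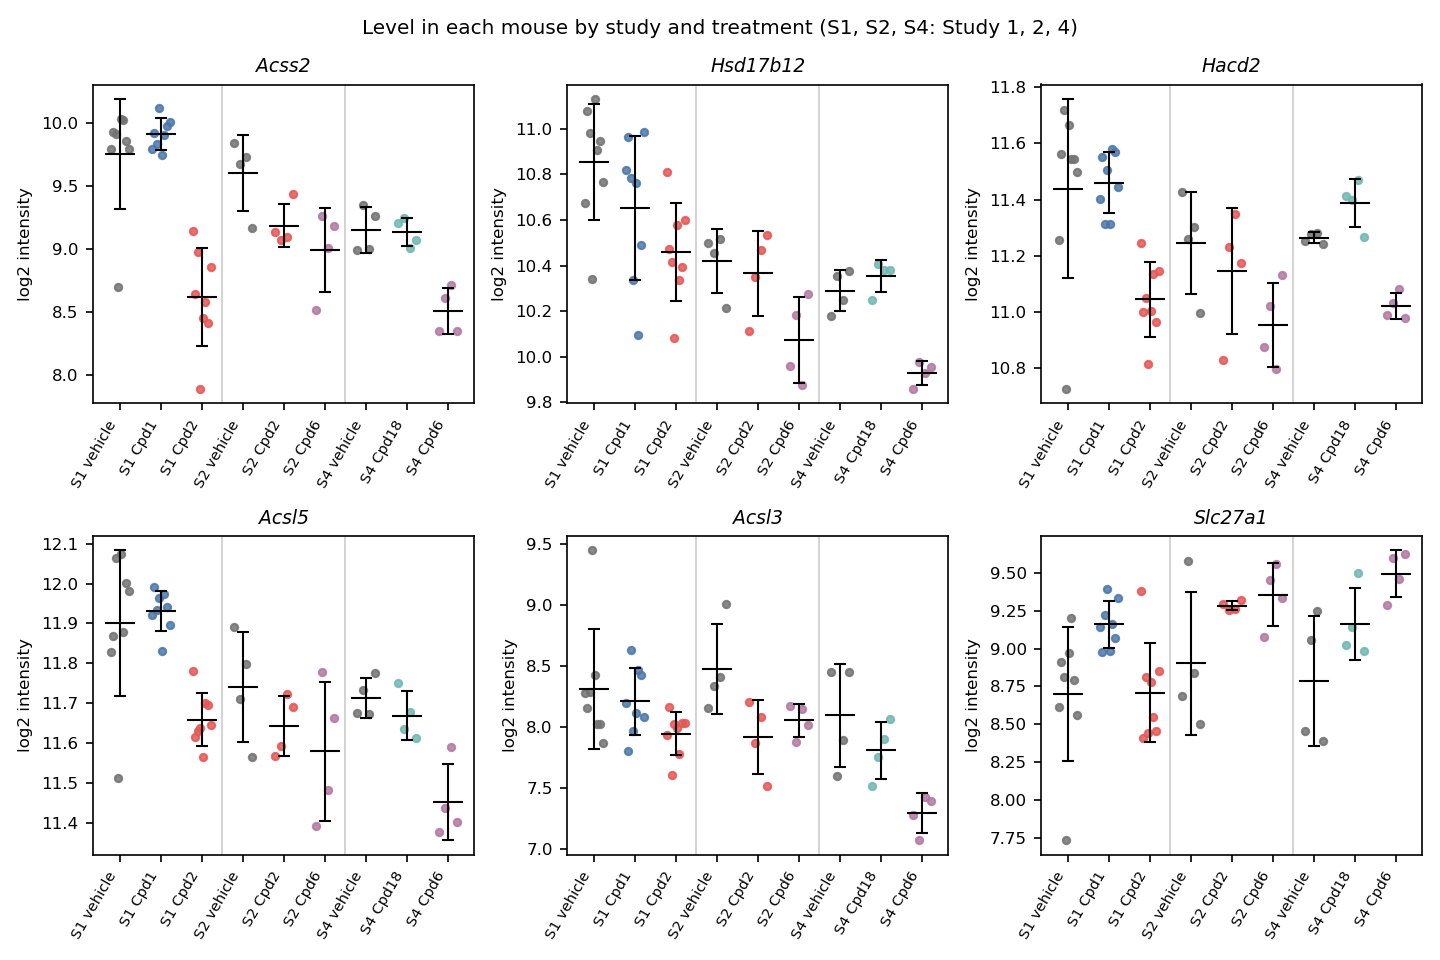
Each point is the log2 intensity of a gene in a mouse (y axis) by study and treatment (x axis), with the group mean and SD as a bar, for the 4 genes called in 2 comparisons and for Acsl3 and Slc27a1. All 4 Cpd6 mice of Study 4 lie below the 4 vehicle mice for Acss2, Hsd17b12, Hacd2, Acsl5 and Acsl3, and above them for Slc27a1.

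Of the 5 tested members of the elongation steps, 4 were called lower with Cpd2 in Study 1 and 2 with Cpd6 in Study 4. Hsd17b12, which carries out the first reduction of the elongation cycle, ran from 10.08 to 10.81 with Cpd2 in Study 1 (median 10.44) and from 10.34 to 11.13 with vehicle (median 10.93), and the groups overlapped. It changed by -0.39 (SE 0.12, adjusted p = 0.035). In Study 4 its levels were 9.86, 9.98, 9.93 and 9.95 with Cpd6, 10.18, 10.35, 10.25 and 10.37 with vehicle, and 10.25, 10.41, 10.38 and 10.38 with Cpd18. The Cpd6 mice lay below all the others, with a change of -0.36 against vehicle (SE 0.07, adjusted p = 0.0058). In Study 2 it was -0.35 with Cpd6 (adjusted p = 0.21) and -0.05 with Cpd2 (95% interval -0.30 to 0.19).

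Hacd2, a dehydratase of the same cycle, ran from 10.82 to 11.25 with Cpd2 in Study 1 (median 11.02) and from 10.73 to 11.72 with vehicle (median 11.54), so that vehicle replicate 4, at 10.73, was the lowest mouse of both groups. The change was -0.39 (SE 0.10, adjusted p = 0.0081), and -0.50 without that mouse. Its levels in Study 4 were 10.99, 11.03, 11.08 and 10.98 with Cpd6 and 11.25, 11.28, 11.28 and 11.24 with vehicle. The groups did not overlap, and the change was -0.24 (SE 0.06, adjusted p = 0.016). With Cpd18 the levels were 11.41, 11.40, 11.47 and 11.27, of which 3 lay above every vehicle mouse (0.12, adjusted p = 0.61). A second probeset of Hacd2 gave larger values of the same sign, at -1.0002 with Cpd2 in Study 1 (adjusted p = 5.0e-05) and -0.50 with Cpd6 in Study 4 (adjusted p = 0.0016), and was at -0.44 with Cpd6 in Study 2 (adjusted p = 0.088).

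Hacd1 and Hacd3 were called with Cpd2 in Study 1 only, at -0.42 (adjusted p = 0.027) and -0.27 (adjusted p = 3.3e-04). The Hacd3 levels of the 8 Cpd2 mice, from 11.80 to 12.03, all lay below the 8 vehicle mice, from 12.07 to 12.30. Hacd4 was not called in any comparison.

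Of the 4 desaturases, Fads2 and Fads3 fell with Cpd2 in Study 1. Fads2, the delta-6 desaturase that starts the synthesis of highly unsaturated fatty acids, changed by -0.73 (adjusted p = 0.030). In Study 4 it was at -0.69 with Cpd6 (adjusted p = 0.090) and -0.70 with Cpd18 (adjusted p = 0.49), and in Study 1 at -0.66 with Cpd1 (adjusted p = 0.19), so its value lay below vehicle with skin-negative as well as skin-positive compounds without passing there. Fads3 changed by -0.57 (adjusted p = 0.0081) and by -0.59 at its second probeset (adjusted p = 0.018). Fads1, the delta-5 desaturase, was not called at its brighter probeset, where the lowest value was -0.71 with Cpd6 in Study 2 (adjusted p = 0.061). Its second probeset fell by 0.56 with Cpd6 in Study 4 (adjusted p = 0.034) and was at 0.10 with Cpd2 in Study 1. Fads6 was not called.

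Among the 7 tested genes of fatty acid activation, 2 fell with Cpd2 in Study 1 and 3 with Cpd6 in Study 4. Acsl5, an acyl-CoA synthetase of mitochondria and endoplasmic reticulum, ran from 11.56 to 11.78 with Cpd2 in Study 1 (median 11.64) and from 11.51 to 12.07 with vehicle (median 11.93), where replicate 4 was lowest. It changed by -0.24 (SE 0.06, adjusted p = 0.0067). In Study 4 its levels were 11.38, 11.44, 11.59 and 11.40 with Cpd6, 11.68, 11.73, 11.67 and 11.78 with vehicle, and 11.75, 11.63, 11.68 and 11.61 with Cpd18. The Cpd6 mice lay below all the others, and the change against vehicle was -0.26 (SE 0.06, adjusted p = 0.014). Aacs, which activates acetoacetate for lipid synthesis, changed by -0.45 with Cpd2 in Study 1 (adjusted p = 0.0062), and its second probeset by -0.30 (adjusted p = 0.18).

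Acsl3 and Dbi were called with Cpd6 in Study 4 only. Acsl3, a synthetase of lipid droplets, was at 7.28, 7.07, 7.42 and 7.39 with Cpd6 and at 8.45, 7.59, 7.89 and 8.44 with vehicle. The groups did not overlap, and the change was -0.80 (SE 0.18, adjusted p = 0.014). Its values in the other comparisons with a skin-positive compound were -0.37 (Cpd2 in Study 1), -0.56 (Cpd2 in Study 2) and -0.42 (Cpd6 in Study 2), none of them called. Dbi, the acyl-CoA binding protein, changed by -0.29 (adjusted p = 0.041), a call lost in 7 of 8 fits that left out 1 mouse and with array medians set equal (-0.25). Acsl4, Acsl6 and Acsbg1 were not called in any comparison. Acsl6 had the lowest value of the 14 members never called, -1.16 with Cpd2 in Study 1 (adjusted p = 0.069).

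Acsbg1, a synthetase for long and very long chains, had the smallest adjusted p of the 14, with Cpd1. Its level ran from 10.76 to 10.96 in the 8 Cpd1 mice and from 9.65 to 10.68 in the 8 vehicle mice, where replicate 4 was lowest. The groups did not overlap, and the difference was 0.45 (adjusted p = 0.051), which passed without any one of 5 vehicle mice. With Cpd2 in the same study it was at -0.04 (95% interval -0.25 to 0.16).

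The Slc27 family, which couples uptake of fatty acids to their activation, moved both ways. Slc27a4, the member that the epidermal barrier depends on, changed by -0.79 with Cpd2 in Study 1 (SE 0.12, adjusted p = 4.7e-05) and by -0.75 at its second probeset (adjusted p = 3.8e-04), with 6 of the 8 Cpd2 mice below every vehicle mouse. Its value with Cpd6 was -0.67 in Study 2 (adjusted p = 0.18) and -0.21 in Study 4. Slc27a3 rose by 0.47 with Cpd2 in Study 1 (adjusted p = 0.016), with 5 of the 8 Cpd2 mice above every vehicle mouse, and was at -0.30 with Cpd6 in Study 4. Slc27a1, found in muscle and fat, rose with Cpd6 in Study 4, from 8.46, 9.06, 9.25 and 8.39 in the vehicle mice to 9.29, 9.601, 9.46 and 9.63, by 0.71 (SE 0.17, adjusted p = 0.022). This call was lost in 4 of 8 fits that left out 1 mouse and with the muscle score as a covariate (0.49). With Cpd18 it was at 0.38, with Cpd1 at 0.46 and with Cpd2 in Study 1 at 0.01, none of them called. Slc27a6 was not called.

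Among the genes of mitochondrial synthesis and of fatty acid release, Oxsm, the condensing enzyme of the mitochondrial pathway, changed by -0.27 with Cpd2 in Study 1 (adjusted p = 0.048). This call was lost in 11 of 16 fits that left out 1 mouse. Mcat, Mecr and the thioesterase Olah were not called. Far2, which makes fatty alcohols for wax esters, was not called either. In Study 2, 3 of the 34 members had Cpd6 levels that did not overlap with vehicle, where 6.83% of all probesets did not overlap, and none of the 3 was called. Acacb was at 4.49, 5.24, 5.23 and 5.35 with Cpd6 and at 6.02, 5.69, 5.99 and 5.72 with vehicle (-0.78, adjusted p = 0.19). Fads1 was at 7.46, 7.69, 7.75 and 7.74 against 8.02, 8.34, 8.39 and 8.73. Acly was at -0.43 (adjusted p = 0.27). The 14 members without a call in the 6 comparisons with vehicle lay between -1.16 and 0.60 (Thrsp with Cpd6 in Study 2).

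The number of calls with Cpd2 in Study 1 was smaller without the 3 mice lowest in muscle markers, and most of the called values were smaller in size. All 20 muscle markers fell in this comparison, by a median of 2.54 on the log2 scale. Cpd2 replicate 2, also below every vehicle mouse in muscle score, was not left out with the 3. Without replicates 3, 4 and 7 of the Cpd2 group, 5 of the 17 members were called, Acss2, Acacb, Slc27a4, Aacs and Hacd3, and 1.76% of all probesets were called lower. With the muscle score of each mouse as a covariate 4 of them were called, Acss2, Acacb, Slc27a4 and Hacd3, against 1.15% of all probesets called lower. Without the 3 mice Acacb was at -1.09 and Acss2 at -1.02. Of the 12 members no longer called, with 5 Cpd2 mice in place of 8, Acsl5 was at -0.24 both ways, Oxsm at -0.31, Hacd1 at -0.38, Hacd2 at -0.33, Fads2 at -0.62 and Fasn at -0.71. Fads3 was at -0.43, Slc25a1 at -0.35, Acly at -0.33, Hsd17b12 at -0.29 and Slc27a3 at 0.39. Mlxipl moved most, from -0.92 to -0.53, and to -0.18 with the covariate. With the covariate, which kept all 8 Cpd2 mice, Acsl5 was at -0.19, Hsd17b12 at -0.20 and Oxsm at -0.22. Slc25a1 and Hacd2 were at -0.24, Acly at -0.29 and Hacd1 at -0.30. Fads3 was at -0.47, Fasn at -0.63, Fads2 at -0.82 and Slc27a3 at 0.34. Without vehicle replicate 4, 19 members were called, the same 17 with Acsl6 and Me1, against 8.87% of all probesets called lower.

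**Figure D4:**
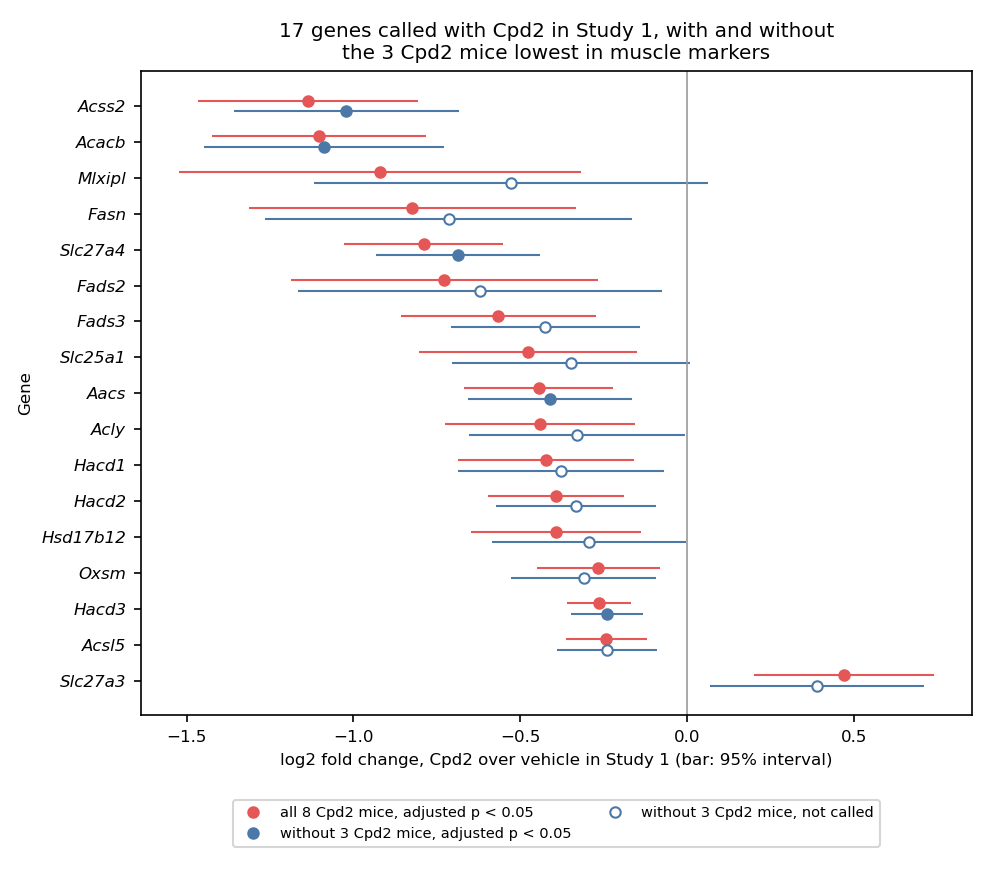
Points are log2 fold changes with 95% intervals (x axis) of the 17 genes called with Cpd2 in Study 1 (y axis), with all 8 Cpd2 mice and without the 3 lowest in muscle markers, and filled points have an adjusted p under 0.05. All values keep their side of 0, and 5 of the 17 stay filled without the 3 mice.

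In the comparison of Cpd6 with vehicle in Study 4, 9 of the 34 members had groups that did not overlap, the 7 called, Acly, which was lower, and Acsl4, which was higher, where 18.9% of all probesets did not overlap. With Cpd18 it was 1 of 34, Dbi, against 3.88% of all probesets. Muscle markers were higher with Cpd6, 4 of 20 by call, with mean scores of 12.20 ± 0.17 (SD, n = 4) against 11.99 ± 0.23 in the vehicle mice. Hair follicle scores ran from 3.81 to 6.09 with Cpd6 and from 3.75 to 10.62 with vehicle, and 2 of 14 hair follicle markers were called lower. The median change of the 14 was -4.48. With the hair follicle score as a covariate Acss2 was the only member still called, against 1.14% of all probesets called lower. Elsewhere the median change of these 14 markers was -3.92 for Cpd6 against Cpd18, and in Study 2 -3.61 with Cpd2 and -4.71 with Cpd6. It was -0.55 with Cpd18, -0.31 with Cpd2 in Study 1 and 1.93 with Cpd1. None of the 14 was called in those comparisons. Of the probesets called with Cpd6 in Study 4, 1314 were higher and 1776 lower, and with array medians set equal 1654 were higher and 1492 lower.

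Other cell type markers moved in the same comparisons. Of 10 sebaceous gland markers, 5 fell with Cpd2 in Study 1, 2 with Cpd2 in Study 2, 3 with Cpd6 there, 7 with Cpd6 in Study 4 and none with Cpd1 or Cpd18, and Scd3 and Apof on that list are genes the study selected from these samples. Their mean level was 8.28 ± 0.41 with Cpd2 and 9.37 ± 0.34 with vehicle in Study 1 (SD, n = 8), 8.54 ± 0.14 with Cpd2, 8.23 ± 0.24 with Cpd6 and 9.03 ± 0.20 with vehicle in Study 2 (n = 4), and 8.07 ± 0.18 with Cpd6, 8.92 ± 0.19 with Cpd18 and 8.89 ± 0.09 with vehicle in Study 4 (n = 4). Of 10 adipocyte markers, none was called with Cpd2 in Study 1 or in Study 2, and 1 rose with Cpd6 in Study 4. Of 8 macrophage markers, 7 fell with Cpd6 in Study 4, with a median change of -0.78, and with Cpd18 none was called but 7 passed unadjusted, with a median of -0.72. The mean macrophage score was 7.51 with Cpd6, 7.63 with Cpd18 and 8.29 with vehicle, and 8 of 10 markers of differentiated keratinocytes rose with Cpd2 in Study 1. The part of the sebaceous gland, macrophage and keratinocyte markers in the values of the members was not tested.

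Other genes of the pathway were taken from a list of 35, of which 28 were tested. With Cpd2 in Study 1, 11 of the 28 fell. With Cpd6 in Study 4, 9 fell and 1 rose. In Study 2, 2 fell with Cpd2 and 3 with Cpd6, and none was called with Cpd1 or Cpd18. Scd3, a stearoyl-CoA desaturase of sebocytes, fell with every skin-positive treatment, with log2 changes of -3.68 for Cpd2 in Study 1, -1.81 for Cpd2 and -2.37 for Cpd6 in Study 2, and -2.11 for Cpd6 in Study 4. Its sequence is close to that of other Scd genes, and probes may share signal. Elovl5, which elongates polyunsaturated chains, also fell in all 4, with changes of -0.79, -0.44, -0.68 and -0.59 in the same order. Scd3 and Elovl5 were selected by the study on the arrays of Studies 1 and 2, so their direction there is not independent evidence. Fabp5, a fatty acid binding protein of epidermis and sebaceous gland, fell in 3 of them, with changes of -1.01 (Cpd2 in Study 1), -0.76 (Cpd6 in Study 2) and -1.15 (Cpd6 in Study 4), and was at -0.38 with Cpd2 in Study 2 (adjusted p = 0.45). The gene that rose with Cpd6 in Study 4 was Scd4 (2.08, adjusted p = 5.8e-04), named after its value was seen.

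Cpd6 and Cpd18 belong to the same chemical series and had the same dose in the methods, and Cpd6 was compared with Cpd18 directly in Study 4. Acss2 was lower with Cpd6 by -0.63 (95% interval -0.86 to -0.39, adjusted p = 0.013), Hsd17b12 by -0.43 (-0.57 to -0.28, adjusted p = 0.0047) and Hacd2 by -0.37 (-0.48 to -0.25, adjusted p = 0.0041), and in each the 4 Cpd6 mice lay below the 4 Cpd18 mice. These 3 of the 34 members were called lower and none higher, where 0.441% of all probesets were called lower and 0.0486% higher. Acsl5 was at -0.22 (-0.34 to -0.09, adjusted p = 0.15), with groups that did not overlap. The values of the other members ran from -0.52 for Acsl3 (adjusted p = 0.27) to 0.33 for Slc27a1, and the half-width of a member's 95% interval ran from 0.12 to 0.54, with a median of 0.26. Among the other pathway genes 6 of 28 were lower with Cpd6 than with Cpd18 and Scd4 was higher. Plasma exposure is not analysed here.

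In Study 2 the skin-positive compounds Cpd2 and Cpd6, of different series, were given at the same dose. No member was called between them, with 0% of all probesets called and 2 of the 34 members at an unadjusted p under 0.05, Hsd17b12 (-0.29, 95% interval -0.54 to -0.05) and Slc27a4 (-0.46, -0.90 to -0.01). At that threshold 8.23% of all probesets passed. The half-width of the interval ran from 0.19 to 0.83, with a median of 0.34, and the result does not show that the compounds act alike.

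The effect of the same compound was compared between studies in a fit over all 48 arrays. For Cpd2 the member effects were lower in Study 1 than in Study 2 by a median of 0.29, and 27 of the 34 differences lay below 0, but none was called, where 0.726% of all probesets were called. At an unadjusted p under 0.05, 10 of the 34 members passed, against 15.4% of all probesets, led by Hacd1 (-0.61, adjusted p = 0.10). Without vehicle replicate 4 of Study 1, 7 members were called, all with the lower value in Study 1, where 3.73% of all probesets were called in that direction. They were Acss2 (-0.87), Slc25a1 (-0.81), Mlxipl (-1.1996), Hacd1 (-0.68), Hacd2 (-0.40), Acsl4 (-0.75) and Slc27a4 (-0.67). With all mice, the 20 muscle markers were also lower in this difference, with a median of -2.55. All 20 passed at an unadjusted p under 0.05 and none was called. In Study 1 alone, with the muscle score as a covariate, Cpd2 gave -0.92 for Acss2, -0.64 for Slc27a4 and -0.30 for Hacd1. It gave -0.24 for Slc25a1 and Hacd2, -0.18 for Mlxipl and 0.11 for Acsl4. For Cpd6 no member differed between Study 2 and Study 4 by call, where 0% of all probesets were called and for Acss2 the difference was 0.03 (95% interval -0.54 to 0.61). At an unadjusted p under 0.05, 2 members passed, against 7.72% of all probesets. The calls in Study 4 and their absence in Study 2 are therefore not shown to be a difference between the studies.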

How the data were processed

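The authors hybridised skin RNA of 48 mice to a custom Affymetrix array and made the values with RMA, which corrects background, normalizes arrays and summarises probes; its version is not given in the sources used here. The deposited table holds linear intensity values for 38385 probesets, with array medians from 26.4 to 30.8. Their base 2 logarithm was taken. Genes were found by symbol, or by RefSeq gene ID for an older name, in the platform annotation, which has 24478 probesets with 1 gene, 65 with several and 13842 with none. Tests ran on the 28789 probesets whose mean log2 level was at least 2.93, the 25th percentile. limma 3.58.1 in R 4.3.3 fitted 1 mean per group in each study, with empirical Bayes moderation, an intensity trend and Benjamini-Hochberg adjustment over all 28789 probesets, and all adjusted p-values are from it. It replaces the one-way ANOVA of the methods, which was run as an alternative. The script was tested on simulated arrays. The number of arrays sets the precision. P-values set a difference between group means against the spread between mice.
The members and gene lists were chosen with earlier results of these data known. Members called in 2 or more comparisons with vehicle are given in full, other called members by their value, and the rest by counts and range. Other pathway genes could be named if called in 3 or more of the 6 comparisons. Alternatives were the filter, scaling, array weights, replicate block, 1 fit over all arrays, the methods' ANOVA and threshold (p under 0.01 and fold over 1.2), another probeset per gene, and leaving out each mouse. Muscle, hair follicle and adipocyte scores as covariates, and leaving out 3 mice, are alternatives chosen after seeing the data. Tables were made in Python 3.11.15 (pandas 2.3.3, numpy 2.4.6) and figures with matplotlib 3.10.9.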

Additional observations from a re-analysis of the deposited data

Results flagged for a closer look

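A value that lay far from the rest of its group was looked for in 180 groups (20 members called in at least 1 comparison, 9 groups each), and 16 were found. Chance gives about 1 in 20 groups. Of the 16, 9 were in vehicle replicate 4 of Study 1. In that mouse the log2 level was the lowest of its group for Fasn (6.9284), Acss2 (8.6997), Slc25a1 (9.4323), Mlxipl (5.0858), Hacd2 (10.7262), Acsl5 (11.5108), Aacs (7.7354) and Slc27a1 (7.732), and the highest for Acsl3 (9.4444). The same mouse stood apart in the marker lists.

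The other 7 lay in 5 mice. In Cpd6 replicate 1 of Study 2, Acly (7.7334) and Acacb (4.4938) were low. In Cpd2 replicate 1 of Study 2, Slc25a1 (10.2703) was low and Mlxipl (7.8003) high. Fads3 was low in Cpd2 replicate 3 of Study 2 (10.3332), Slc27a1 was high in Cpd2 replicate 1 of Study 1 (9.3798), and Slc27a4 was low in vehicle replicate 4 of Study 2 (10.375).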

How the results depend on the processing

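No called value changed sign under any alternative. For Cpd2 in Study 1 the count of 17 became 11 by the methods' one-way ANOVA (10 of the 17, and Acaca) and 4 with the muscle score as a covariate. It became 5 without the 3 mice lowest in muscle markers, and 10 to 19 when 1 mouse was left out (10 without Cpd2 replicate 4 or vehicle replicate 6, 19 without vehicle replicate 4). For Cpd6 in Study 4 the count of 7 became 11 with array weights, 1 in a fit over all 48 arrays, 4 by ANOVA, 4 with the muscle score, 1 with the hair follicle score, and 4 to 9 with 1 mouse left out (4 without Cpd6 replicate 4, 9 without vehicle replicate 2). For Cpd6 against Cpd18 the count of 3 became 0 in the fit over all arrays and by ANOVA, 8 at the methods' threshold, 5 with the adipocyte score, and 2 to 4 with 1 mouse left out. For Cpd1 the count of 0 became 1 with the 50th percentile filter, quantile normalization, array weights, the fit over all arrays, and the muscle or adipocyte score (Acsbg1 in each), 4 at the methods' threshold, 5 with the hair follicle score, and 0 to 1 with 1 mouse left out. In Study 2 the count for Cpd2 became 1 at the methods' threshold, and that for Cpd6 became 1 with the 50th percentile filter and in the fit over all arrays, 6 with array weights, 5 at the methods' threshold, and 0 to 1 with 1 mouse left out. For Cpd2 between studies it became 6 with array weights, 4 at the methods' threshold, 2 in 3 separate fits, and 0 to 7 with 1 mouse left out (7 without vehicle replicate 4 of Study 1). The causes were not tested. Whether replicate numbers pair the mice is not known. Same-numbered mice correlated between -0.44 and 0.38. Their median was -0.04 in Study 1, -0.03 in Study 2 and 0.11 in Study 4, against 0.01, 0.01 and -0.04 for other pairs. With a replicate block 15, 7 and 3 members were called with Cpd2 in Study 1, with Cpd6 in Study 4 and for Cpd6 against Cpd18, and 3 of the 27 called values were lost. The number of arrays and the spread between mice limit what could be detected.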
